A study of Mus musculus with 5 samples.

Results

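A set of 10 mouse genes for heat shock proteins and chaperones was followed through 5 RNA-seq libraries of sorted spleen cells: Hspa1a, Hspa1b, Hspa8, Hspa5, Hsp90aa1, Hsp90ab1, Hsp90b1, Hsph1, Dnajb1 and Dnaja1. They were chosen by name from the 35275 genes of the deposited table, and all 10 were found there once. The choice was made with earlier results of these data known. All libraries came from wild-type C57BL/6 mice at 3 months of age, and their spleen lymphocytes went through a CD8 enrichment before staining and a flow cytometry sort. The groups were CD4 regulatory T cells (CD4 Treg, 2 libraries), CD8 regulatory T cells (CD8 Treg, 1 library) and a sort named CD49lo (2 libraries). The labels do not spell out CD49lo, and the series' design line names CD8 effector-like cells as its remaining population. The study compared the RNA profiles of these sorted populations. Nothing in the labels says that the numbered libraries came from separate animals or how many animals gave cells, so p-values measure the spread between these libraries, which may be technical. The CD8 Treg values rest on n = 1.

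Chaperones bind unfolded proteins and help them to fold, assemble or be degraded. HSP70 proteins hold short unfolded stretches in cycles of ATP hydrolysis that J proteins (DNAJ) start and nucleotide exchange factors end, and HSP90 proteins act later on nearly folded clients such as kinases and steroid receptors. Heat shock factors raise the stress-inducible cytosolic members, whereas the members of the endoplasmic reticulum (ER) are raised by the unfolded protein response. In lymphocytes the ER members are known for the folding of immunoglobulins, integrins and Toll-like receptors, and cytosolic HSP90 for its hold on kinases of antigen receptor signalling.

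The promoters of the set carry letters of both systems, and 6 windows are shown because they hold a match to a heat shock or ER stress element. Sequences are from RefSeq (GRCm38.p6, the same assembly as mm10), which gave promoters for 7 of the 10 genes, with 11 start sites. Hspa8, Hsp90aa1 and Hsp90ab1 were not matched. The 250 bases before each start were searched on both strands. A pair of inverted heat shock element units (GAANNTTC or TTCNNGAA) stood before 5 of the 11 starts, those of Hspa1a and Hspa1b, both of Hsph1 and 1 of the 3 of Dnaja1. That pair was found in 12.8% of the 32851 promoters of the table, so it is a common match. The ER stress response element (CCAAT and CCACG with 9 bases of any kind between them, so that it includes a CCAAT box) stood before Hspa5, with 1 match, and Hsp90b1, with 2 matches, which is 2 of the 11 starts, and in 0.113% of all promoters. Lines below run 5′ to 3′ on the gene's strand and end at the base before the start. Capitals mark the heat shock element pair in the first 4 and the ER stress response element in the last 2.
Hspa1a, chr17:34972157-34972406, minus strand: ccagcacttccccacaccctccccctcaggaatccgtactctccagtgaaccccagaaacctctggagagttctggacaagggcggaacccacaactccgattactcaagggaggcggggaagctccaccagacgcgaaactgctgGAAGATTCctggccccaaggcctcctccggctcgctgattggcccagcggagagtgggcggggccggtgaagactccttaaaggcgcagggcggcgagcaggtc
Hspa1b, chr17:34959239-34959488, minus strand: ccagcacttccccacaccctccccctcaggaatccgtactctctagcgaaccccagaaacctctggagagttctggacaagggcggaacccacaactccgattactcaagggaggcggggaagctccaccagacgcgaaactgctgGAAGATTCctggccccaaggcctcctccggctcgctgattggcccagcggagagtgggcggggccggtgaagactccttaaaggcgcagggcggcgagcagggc
Hsph1, chr5:149636337-149636586, minus strand: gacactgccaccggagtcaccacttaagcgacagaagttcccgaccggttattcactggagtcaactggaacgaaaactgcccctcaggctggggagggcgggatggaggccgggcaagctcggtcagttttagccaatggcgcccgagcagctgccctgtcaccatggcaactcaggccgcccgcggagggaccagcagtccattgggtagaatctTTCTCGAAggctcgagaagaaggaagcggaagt
Dnaja1, chr4:40722218-40722467, plus strand: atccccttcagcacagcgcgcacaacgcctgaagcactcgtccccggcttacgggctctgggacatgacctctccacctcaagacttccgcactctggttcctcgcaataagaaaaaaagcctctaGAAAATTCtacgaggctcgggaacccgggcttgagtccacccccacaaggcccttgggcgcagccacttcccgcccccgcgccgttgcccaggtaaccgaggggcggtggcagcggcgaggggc
Hspa5, chr2:34771840-34772089, plus strand: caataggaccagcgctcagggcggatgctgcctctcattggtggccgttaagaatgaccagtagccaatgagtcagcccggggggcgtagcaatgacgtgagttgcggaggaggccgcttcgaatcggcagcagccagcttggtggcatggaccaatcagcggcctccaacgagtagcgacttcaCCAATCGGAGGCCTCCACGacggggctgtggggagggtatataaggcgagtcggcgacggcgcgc
Hsp90b1, chr10:86705445-86705694, minus strand: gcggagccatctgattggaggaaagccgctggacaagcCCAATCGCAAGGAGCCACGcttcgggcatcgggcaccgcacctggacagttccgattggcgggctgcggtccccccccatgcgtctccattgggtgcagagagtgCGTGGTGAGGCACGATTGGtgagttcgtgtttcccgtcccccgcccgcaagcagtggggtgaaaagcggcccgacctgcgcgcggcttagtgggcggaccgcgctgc

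The Hspa1a and Hspa1b windows were the same at 247 of 250 bases. Their match lay 96 bases before the start, that of Dnaja1 116 bases before it, and that of Hsph1 25 bases before the start shown. The Hspa5 match lay 46 bases before the start and those of Hsp90b1 88 and 193 bases before it. The longer heat shock element of 3 alternating units (GAA, TTC and GAA, or TTC, GAA and TTC, with 2 bases of any kind between units) had no match before any of the 11 starts and was found in 0.466% of all promoters. These matches describe the letters of the windows and were not tested as binding sites.

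Depth recovered from the table was 5441444 to 8354971 reads in genes per library. Levels are given as RPKM, reads scaled to the length of the gene and the depth of the library. Foxp3, the lineage factor of CD4 Treg, stood at 146 RPKM in both CD4 Treg libraries and at 0.387 RPKM in the CD8 Treg library, so this defining marker was near 0 there. Cd8a was at 187 RPKM in CD8 Treg, 215 and 255 RPKM in CD49lo, and at most 0.412 RPKM in CD4 Treg. The CD8 Treg library stood apart in the noncoding transcript Gm26917, at 78986 RPKM against 38348 to 47918 RPKM elsewhere. It also stood apart in the share of reads from 84 ribosomal protein genes, 14.7% (95% exact interval 14.69% to 14.74%) against 9.72% to 10.9% in the other 4. Xist was at 27.2 RPKM or more in both CD4 Treg libraries and at most 0.0834 RPKM in the other 3, while Ddx3y had the reverse pattern, so the sex of the mice and the CD4 Treg group cannot be told apart. Lists of genes used as markers of other cells had lower sums in CD4 Treg. The 10 genes of the NK cell list summed to at most 15.2 RPKM against 419 in CD8 Treg and 678 and 2147 RPKM in CD49lo. The 13 myeloid genes summed to at most 24.6, 341, and 557 and 601 RPKM, and the 9 red cell and platelet genes to at most 17.2, 17.8, and 40.7 and 78.8 RPKM. From these lists, Ncr1, Klrd1 and Clec7a were at 0 in both CD4 Treg libraries. Others were not, such as Prf1 (5.96 and 6.26 RPKM) and C1qa (3.88 and 4.24 RPKM). In the NK cell list Gzma alone was at 56.4 RPKM in CD8 Treg and 304 and 1580 RPKM in CD49lo. Whether such RNA came from NK cells or from the sorted cells themselves cannot be told here. The part of other cells in the results below was not tested.

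Hsp90ab1 and Hspa8 led the set in every library, and the heat-inducible Hspa1a was last in every library. Hsp90ab1, the constitutive cytosolic HSP90, was at 1347 and 1255 RPKM in CD4 Treg, 912 for CD8 Treg, and 898 and 747 RPKM in CD49lo. Hspa8, the constitutive cytosolic HSP70 (HSC70), was at 1116 and 1119, 745, and 681 and 638 RPKM. Together they made up 68.9% and 68.8% of the summed RPKM of the 10 genes in CD4 Treg, 74.5% in CD8 Treg, and 67.3% and 64.3% in CD49lo. Next came Hsp90aa1, the inducible cytosolic HSP90, at 412 and 403, 186, and 284 and 265 RPKM. The order then differed between sorts: Hspa5 was above Hsp90b1 in both CD4 Treg libraries and in CD8 Treg, and below it in both CD49lo libraries. As a share of all reads in genes, the 10 genes took 1.07% (95% exact binomial interval 1.06% to 1.07%) and 1.03% (1.02% to 1.04%) in CD4 Treg, 0.650% (0.643% to 0.656%) in CD8 Treg, and 0.691% (0.685% to 0.697%) and 0.640% (0.634% to 0.646%) in CD49lo. These intervals cover counting error only. The share was thus higher in both CD4 Treg libraries than in the other 3, which lay close together.

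**Figure D1:**
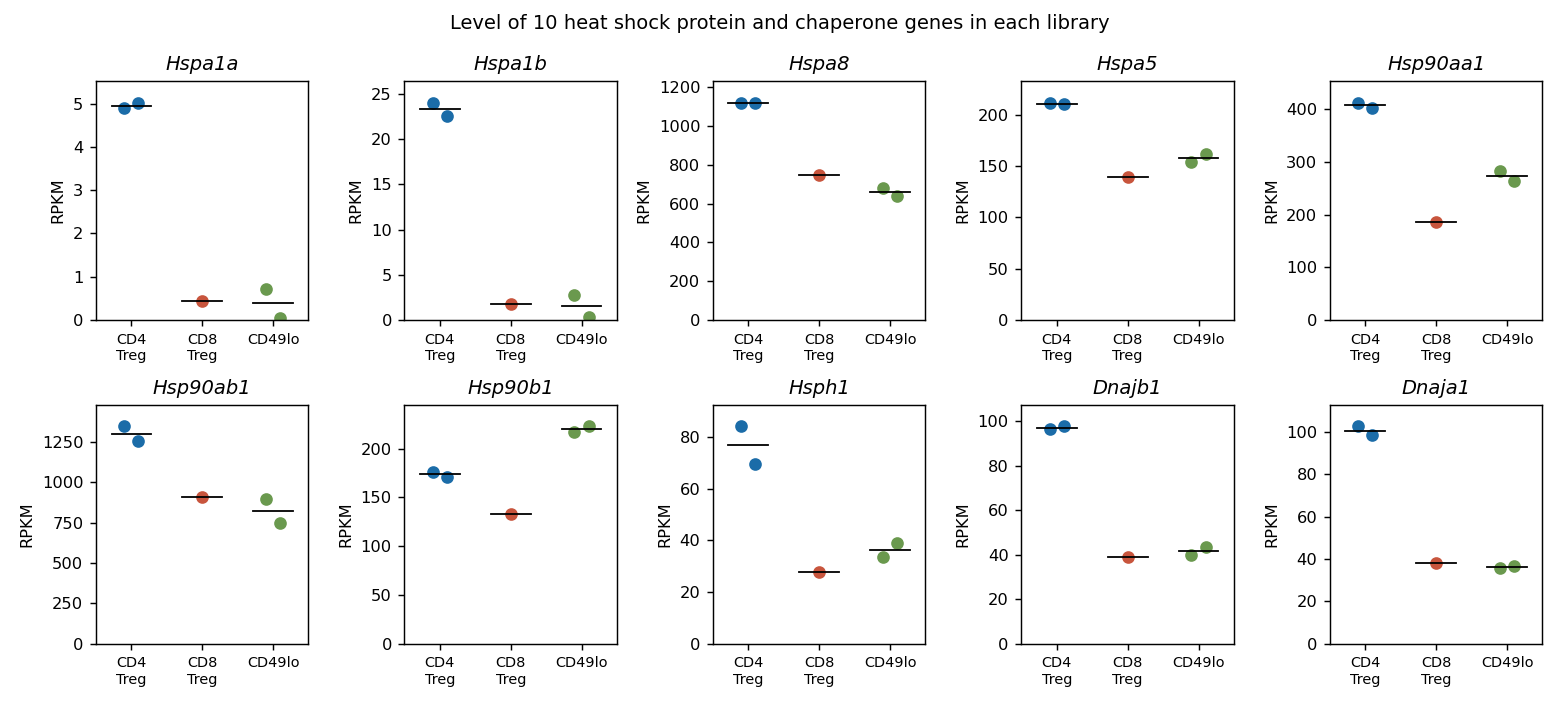
Level of each of the 10 genes in RPKM (y axis, starting at 0, a scale of its own for each gene) in the 5 libraries by sort (x axis). Points are libraries and lines are group means; both CD4 Treg points lie above the other 3 for every gene but Hsp90b1, whose CD49lo points at 218 and 223 RPKM are the highest.

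In CD4 Treg against CD49lo all 10 genes passed the test, 9 higher and only Hsp90b1 lower in CD4 Treg. Genes called higher made up 9.41% of the 13298 genes tested, and genes called lower 12.8%. Since the set was chosen with earlier results known, its contrast with these shares is not independent of the data. The test was limma on log2(RPKM + 0.5) over all 5 libraries, with Benjamini-Hochberg adjustment over all genes tested, and log2 fold changes below are on that scale with their SE. That scale understates the change of genes at low levels, so ratios of mean RPKM are given beside it. These ratios, and the overlaps between libraries, use deposited RPKM without the scaling factors of the fit, so the 2 measures also differ by that scaling. The median log2 fold change was 0.94 over the 10 genes and -0.03 over all genes tested. Libraries of the 2 sorts did not overlap for any of the 10 genes, 9 of them higher in CD4 Treg, where 26.5% of all genes had both CD4 Treg libraries above both CD49lo libraries and 33.7% had them below. In these bulk libraries fewer cells that express a gene and less RNA of it per cell cannot be told apart. Leaving out any 1 replicate reversed the direction of none of the 10 genes. A sort then rests on 1 library, and in the main fit calls were lost among these genes and all genes alike. With limma-voom on recovered reads, an alternative added after seeing the data for these smaller sets, the calls lost were those of Hspa5 and Hsp90b1.

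The stress-inducible HSP70 genes had the largest ratios of the set. Hspa1b was at 24.0 and 22.6 RPKM in CD4 Treg (418 and 344 reads), 1.76 RPKM in CD8 Treg (30 reads), and 2.78 and 0.326 RPKM in CD49lo (65 and 6 reads). Both CD4 Treg libraries were far above the other 3, and the CD49lo libraries differed between themselves. The mean was 23.3 ± 1.05 RPKM (SD, n = 2) in CD4 Treg and 1.55 ± 1.73 RPKM (SD, n = 2) in CD49lo, a ratio of 15.02, with a log2 fold change of 3.86 ± 0.53 (adjusted p = 0.000751). Hspa1a, its tandem copy on chromosome 17, was at 4.89 and 5.02, 0.444, and 0.726 and 0.0513 RPKM, the last from 1 read. Again both CD4 Treg libraries were above the other 3, and Hspa1b was 3.82 to 6.35 times Hspa1a within a library. The Hspa1a means had a ratio of 12.7, a log2 fold change of 2.73 ± 0.46 and an adjusted p of 0.00245. Hspa1l, the neighbouring family member known from testis, was at most 0.194 RPKM in any library.

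Hspa1a (chr17:34969190-34972156, minus strand, mm10) and Hspa1b (chr17:34956436-34959238, minus strand) are near-identical genes, 9951 bases apart. Of the windows of 50 bases in their transcripts, 58.8% of those of Hspa1a also occur in Hspa1b, so reads cannot be assigned with certainty and the split between the genes is uncertain. How reads that map to several places were handled is not given in the sources used here. Hspa1a also overlaps the protein-coding gene Gm20481 on the opposite strand over 2225 bases, a gene at no more than 0.326 RPKM. Whether this overlap lowered the Hspa1a counts was not tested. Summed as 1 gene, their log2 fold change was 3.94 ± 0.56 with an adjusted p of 0.000894.

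Hspa8 (chr9:40800984-40805200, plus strand), with 13222 to 21856 reads per library, rose less in ratio and more in RPKM. Its CD4 Treg mean of 1117 ± 2.29 RPKM (SD, n = 2) was 1.69 times the CD49lo mean of 659 ± 30.3 RPKM (SD, n = 2), with a log2 fold change of 0.79 ± 0.10 (adjusted p = 0.000374). Its transcripts share 34.6% of their 50-base windows with the pseudogene Gm15459, which was listed at 0 in every library.

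The cofactors of cytosolic HSP70 were higher by larger ratios than Hspa8. Dnaja1 (chr4:40722150-40737149, plus strand), a J protein that hands clients to HSC70, was at 103 and 98.3 RPKM in CD4 Treg, 38.1 for CD8 Treg, and 36.0 and 36.6 RPKM in CD49lo. The CD8 Treg library lay beside the CD49lo libraries. Dnaja1 overlaps Smu1, at 34.0 to 52.1 RPKM, on the opposite strand over 608 bases. Its CD4 Treg mean was 2.77 times the CD49lo mean, with a log2 fold change of 1.48 ± 0.10 (adjusted p = 1.08e-05). Dnajb1 (HSP40, chr8:83608175-83611902, plus strand), the stress-inducible J protein, was at 96.5 and 97.6, 39.1, and 39.8 and 43.6 RPKM. Again the 3 libraries outside CD4 Treg lay close together, and the CD4 Treg mean was 2.33 times that of CD49lo (log2 fold change 1.24 ± 0.11, adjusted p = 7.08e-05). Hsph1 (HSP105 of the HSP110 family, chr5:149614287-149636376, minus strand), which exchanges the nucleotide of HSP70, was at 84.0 and 69.6, 27.5, and 33.7 and 38.9 RPKM. Here the CD4 Treg libraries were further apart than for the J proteins, and CD8 Treg was the lowest. The CD4 Treg mean was 2.11 times the CD49lo mean (log2 fold change 1.09 ± 0.13, adjusted p = 0.000265).

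Both cytosolic HSP90 genes were higher in CD4 Treg by less than these cofactors. Hsp90aa1 (chr12:110690605-110702728, minus strand) had means of 408 ± 6.75 RPKM (SD, n = 2) in CD4 Treg and 274 ± 13.5 RPKM (SD, n = 2) in CD49lo, a ratio of 1.49, with a log2 fold change of 0.60 ± 0.10 (adjusted p = 0.00177). Hsp90ab1 (chr17:45567775-45573271, minus strand) had means of 1301 ± 64.8 and 822 ± 107 RPKM (SD, n = 2 each), a ratio of 1.58, with a log2 fold change of 0.69 ± 0.12 (adjusted p = 0.00253). The 95% intervals of the log2 fold changes, 0.38 to 0.81 and 0.43 to 0.96, overlapped widely, and the difference between the genes was not tested. Hsp90aa1 transcripts share 41.8% of their 50-base windows with the pseudogene Gm12346, which was at 3.29 to 9.13 RPKM.

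The ER members moved in opposite directions in this comparison. Hspa5 (BiP, chr2:34771970-34776531, plus strand), the HSP70 of the ER, was at 212 and 209.9 RPKM in CD4 Treg, 139.5 for CD8 Treg, and 154 and 162 RPKM in CD49lo. CD4 Treg was the highest sort, at 1.34 times CD49lo, with a log2 fold change of 0.44 ± 0.09 (adjusted p = 0.00829). Hsp90b1 (GRP94, chr10:86690209-86705509, minus strand), the HSP90 of the ER, was at 176 and 171, 133, and 218 and 223 RPKM. CD49lo was the highest sort here, and the CD4 Treg mean was 0.789 times the CD49lo mean, or -0.31 ± 0.09 on the log2 scale (adjusted p = 0.0371). These were the smallest changes of the 10. Hsp90b1 overlaps the noncoding gene 1810014B01Rik on the opposite strand over 4598 bases, a gene at no more than 3.67 RPKM, and whether counting used strand is not given in the sources used here.

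Summed markers of plasma cells and of dividing cells were lower in CD4 Treg than in CD49lo, as Hsp90b1 was, but CD8 Treg did not follow. The plasma cell genes summed to 582 and 636 RPKM in CD4 Treg, 1291 for CD8 Treg, and 2296 and 1898 RPKM in CD49lo, and 6 of 10 tested were lower in CD4 Treg than in CD49lo while none was higher. Of these, Mzb1, an ER cochaperone of B-lineage cells that works with GRP94, was at 0 in both CD4 Treg libraries, 9.10 RPKM in CD8 Treg, and 20.2 and 16.8 RPKM in CD49lo. The immunoglobulin light chain Igkc was at 49.9 and 27.3, 848, and 1514 and 1322 RPKM. Ighm, the immunoglobulin mu heavy chain and a gene of both the plasma and the B cell list, was at 444 and 521, 285, and 518 and 336 RPKM, so it made up most of the CD4 Treg sums and did not pass between CD4 Treg and CD49lo (adjusted p = 0.431). The 15 B cell genes in the table summed to 520.4 and 591, 1072, and 2245 and 2199.7 RPKM, with 14 of 15 lower in CD4 Treg than in CD49lo. The 20 genes of dividing cells summed to 201 and 223, 246, and 722 and 532 RPKM, with 19 of 20 lower. The summed plasma, B cell and dividing cell markers of CD8 Treg lay between those of the other sorts. Its Hsp90b1, at 133 RPKM, was instead the lowest of the 5 libraries. Single markers did not all follow the sums: CD8 Treg had the lowest values of the 5 libraries in Ighm, Irf4 (5.45 RPKM), Prdm1 (1.96 RPKM) and Xbp1 (21.0 RPKM). Of the 10 plasma cell genes tested, 5 were higher and 3 lower (Prdm1, Irf4 and Xbp1) in CD8 Treg than in CD4 Treg. The part of these cells in the Hsp90b1 difference was not tested.

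**Figure D2:**
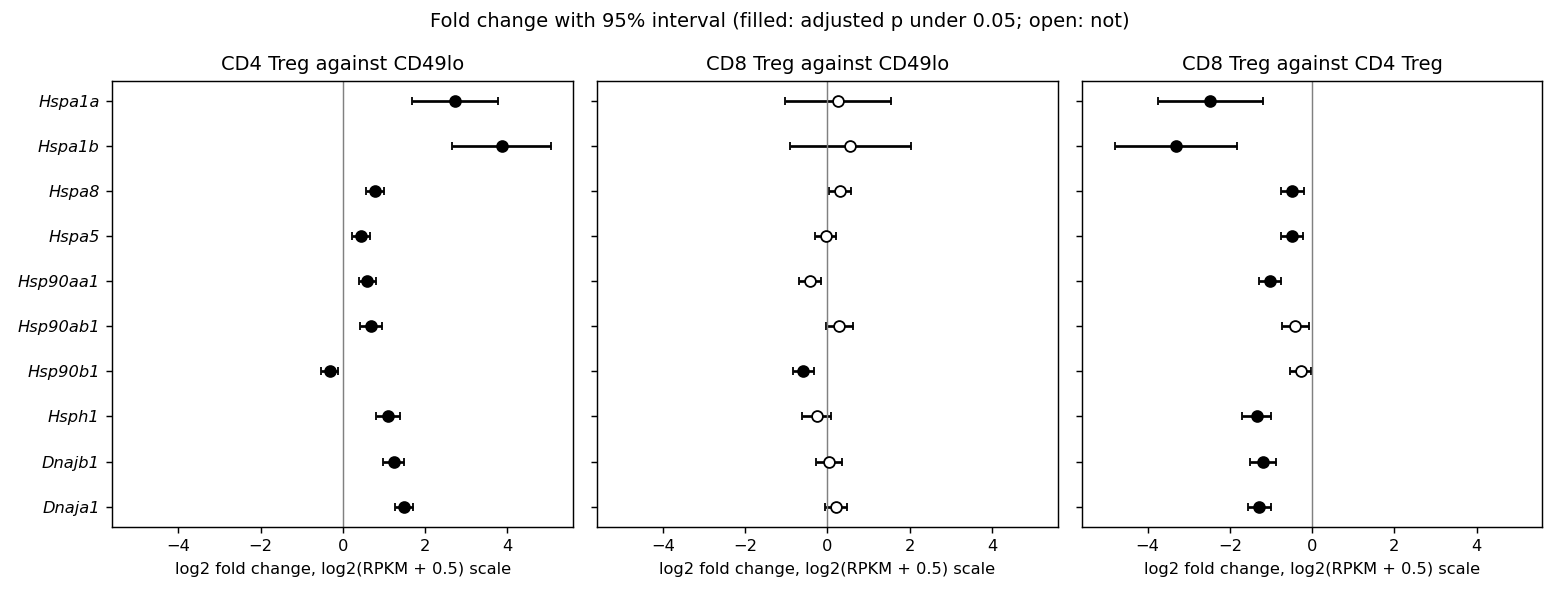
Log2 fold change on the log2(RPKM + 0.5) scale (x axis) with its 95% interval for each gene (y axis) in the 3 comparisons, filled where the adjusted p was under 0.05. CD4 Treg was higher than CD49lo for 9 genes and CD8 Treg was below CD4 Treg for all 10, 8 of them filled, while Hsp90b1 is the only filled point between CD8 Treg and CD49lo.

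In CD8 Treg against CD4 Treg 8 of the 10 genes passed the test, all lower in CD8 Treg, where 8.35% of the genes tested were called lower and 8.51% higher. Every one of the 10 had its CD8 Treg value below both CD4 Treg values, as did 45.7% of all genes tested. These positions, and the ratios of means below, are on deposited RPKM, with the CD8 Treg scaling factor of 0.935 not applied. The comparison shares its CD4 Treg libraries with the one above, so the 2 sets of values are not independent. With n = 1, the fit lends CD8 Treg the spread of the replicated sorts. By role, the inducible HSP70 genes were lowest in ratio: the CD4 Treg mean was 13.2 times the CD8 Treg value for Hspa1b (log2 fold change -3.31 ± 0.65, adjusted p = 0.00788) and 11.2 times for Hspa1a (-2.47 ± 0.57, adjusted p = 0.0164). Among the cofactors, Hsph1 fell by 1.35 ± 0.16 on the log2 scale (adjusted p = 0.00041), Dnaja1 by 1.28 ± 0.12 (adjusted p = 0.000127) and Dnajb1 by 1.19 ± 0.14 (adjusted p = 0.000447). Hspa8 fell by 0.48 ± 0.12 (adjusted p = 0.0239), the smallest of the cytosolic changes that passed.

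Of the cytosolic HSP90 genes, Hsp90aa1 passed in CD8 Treg against CD4 Treg and Hsp90ab1 did not, and the difference between them was not tested. Hsp90aa1 had a log2 fold change of -1.02 ± 0.12 (adjusted p = 0.000406), while Hsp90ab1 had -0.40 ± 0.15 with a 95% interval of -0.73 to -0.08 and an adjusted p of 0.0953. In the ER, Hspa5 fell by 0.49 ± 0.12 (adjusted p = 0.0189) and Hsp90b1 had -0.27 ± 0.11 with an interval of -0.53 to -0.02 and an adjusted p of 0.145. Without any scaling factor Hsp90ab1 and Hsp90b1 passed as well, at adjusted p of 0.0284 and 0.0435. The Hspa1a call was lost with a pseudocount of 0.1 (adjusted p = 0.0506) and with limma-voom (adjusted p = 0.0606). Under limma-voom Hsp90ab1 passed instead (adjusted p = 0.0284), so the count remained 8. Leaving out any replicate reversed the direction of none of the 10 genes. In the main fit calls were then lost among these genes and all genes alike, and fewer were lost with limma-voom.

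In CD8 Treg against CD49lo only Hsp90b1 passed, lower in CD8 Treg with -0.59 ± 0.11 on the log2 scale (adjusted p = 0.0185), where 5.37% of all genes tested were called, 3.65% lower and 1.71% higher. On deposited RPKM the CD8 Treg value of 133 was below both CD49lo values. So were those of 4 further genes of the 10 (Hspa5, Hsp90aa1, Hsph1 and Dnajb1), and 51.2% of all genes lay that way. Hspa8, Hsp90ab1 and Dnaja1 were above both CD49lo values, as were 24.5% of all genes, and Hspa1a and Hspa1b lay between them. These positions and shares leave out the scaling factors, 0.935 for CD8 Treg and 1.01 and 1.04 for CD49lo. The fit applies them, and there Dnajb1 had a log2 fold change of 0.04, not a lower value in CD8 Treg. Hsp90aa1 was nearest to passing, at 186 RPKM against 284 and 265 RPKM, with a log2 fold change of -0.42 ± 0.12 (adjusted p = 0.0762). It passed without a scaling factor (adjusted p = 0.0193) and with limma-voom (adjusted p = 0.0435).

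The other 8 genes were not separated from CD49lo, and their intervals show what sizes remain possible. For Dnajb1 the log2 fold change was 0.04 with a 95% interval of -0.28 to 0.36, for Dnaja1 0.20 (-0.07 to 0.47) and for Hspa5 -0.04 (-0.30 to 0.22). The direction for Dnajb1 flipped without a scaling factor (-0.09). For Hsph1 it was -0.26 (-0.61 to 0.09), for Hspa8 0.31 (0.04 to 0.58) and for Hsp90ab1 0.29 (-0.04 to 0.62). The low counts of Hspa1a and Hspa1b gave wide intervals, -1.03 to 1.53 and -0.92 to 2.03, and the sign of both flipped without CD49lo replicate 2. The Hsp90b1 call was lost without any 1 of the 4 replicates, at adjusted p of 0.0993 and 0.113 without the CD4 Treg replicates and 0.249 and 0.244 without the CD49lo replicates, and it was kept in each of these sets with limma-voom. Leaving out the scaling factor moved the median of all genes in this comparison from -0.04 to -0.16, and with it the share of all called genes that were higher in CD8 Treg from 31.9% to 20.4%.

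Ratios within a library do not depend on its scaling, and they set the sorts apart in different ways. Hspa1a and Hspa1b together came to 2.59% and 2.46% of the Hspa8 RPKM for CD4 Treg, 0.296% for CD8 Treg, and 0.514% and 0.0592% for CD49lo. Inducible HSP70 RNA was a small part of the cytosolic total in every library and larger in both CD4 Treg libraries. Hspa8 per Dnaja1 was 10.9 and 11.4 in CD4 Treg, 19.5 in CD8 Treg, and 18.9 and 17.4 in CD49lo, so the J protein was more abundant per HSC70 transcript in CD4 Treg. Hsp90ab1 per Hsp90aa1 was 3.27 and 3.12, 4.90, and 3.16 and 2.82. On this ratio CD8 Treg stood alone, and CD4 Treg and CD49lo lay side by side.

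Across compartments the ER ratio divided CD49lo from the rest. Hsp90b1 per Hspa5 was 0.833 and 0.816 in CD4 Treg, 0.957 in CD8 Treg, and 1.41 and 1.38 in CD49lo. Hsp90ab1 per Hsp90b1, cytosolic over ER HSP90, was 7.65 and 7.33, 6.83, and 4.13 and 3.35, and CD8 Treg lay beside CD4 Treg. Hspa8 per Hspa5, cytosolic over ER HSP70, spanned 3.94 to 5.34 over the 5 libraries, the narrowest of these ratios across sorts. No test was run on these ratios, which are given as values.

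**Figure D3:**
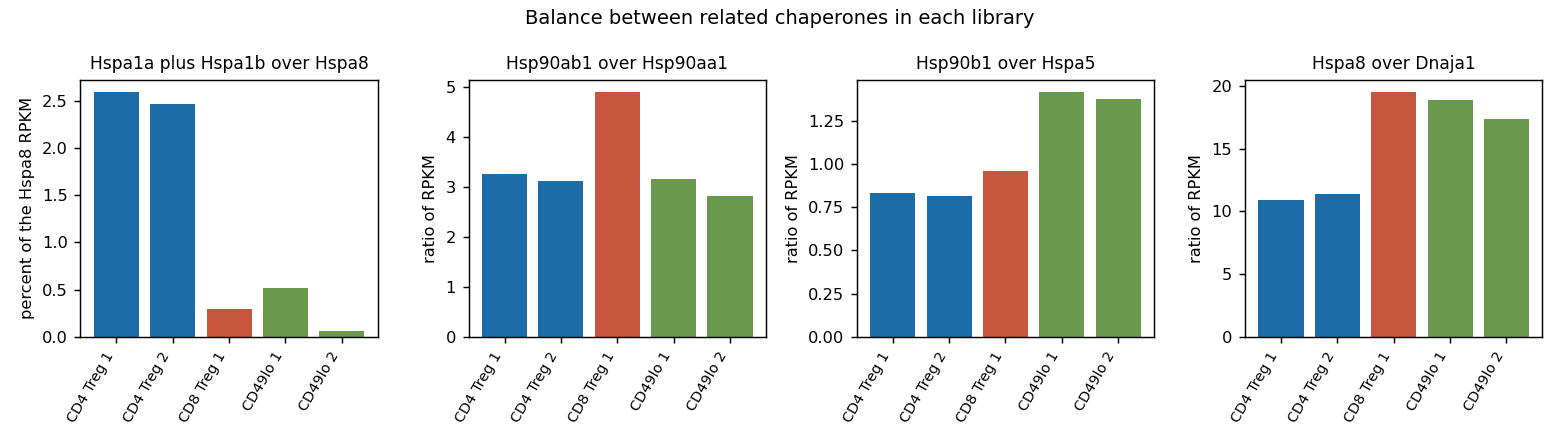
Ratios of RPKM between related genes (y axes, starting at 0, the first in percent) in each of the 5 libraries (x axis), 1 bar per library and colour by sort. Inducible over constitutive HSP70 is highest in CD4 Treg (2.59% and 2.46%), Hsp90ab1 over Hsp90aa1 in CD8 Treg (4.90), and Hsp90b1 over Hspa5 in CD49lo (1.41 and 1.38).

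Beyond the 10 genes, 120 further genes in lists of chaperones, cochaperones, folding enzymes and their regulators were in the table, 114 of them tested. In CD4 Treg against CD49lo 18 were higher (15.8%, against 9.41% of all genes) and 11 lower (9.65%, against 12.8%), with a median log2 fold change of 0.10 against -0.03 over all genes. Between CD8 Treg and CD4 Treg 2 were higher and 17 lower in CD8 Treg (14.9%, against 8.35% of all genes), and the median was -0.15 against 0.02. CD8 Treg had none higher and 2 lower than CD49lo, Sdf2l1 and Pfdn1. The counts include Hspb1, higher in CD4 Treg in both comparisons with it, and Fkbp11, lower in CD4 Treg than in CD49lo. Each was at 0 reads in the lower group and passed the filter only through the higher one, so these calls are no separate support. The lists were drawn up with earlier results of these data known.

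Cochaperones of HSP90 were the list with most calls after the 10 genes: 6 of 16 were higher and 1 lower in CD4 Treg than in CD49lo (list median 0.23). Stip1 (HOP), which bridges HSP70 and HSP90, was at 133 and 116 RPKM in CD4 Treg, 57.6 for CD8 Treg, and 59.6 and 65.0 RPKM in CD49lo, with log2 fold changes of 1.02 ± 0.12 (adjusted p = 0.000251) against CD49lo and -0.99 ± 0.14 (adjusted p = 0.00151) for CD8 Treg against CD4 Treg. Fkbp4, an immunophilin of steroid receptor complexes, was at 88.1 and 83.5, 48.0, and 47.8 and 55.5 RPKM (log2 fold change 0.76 ± 0.12, adjusted p = 0.00139 for CD4 Treg against CD49lo). Chordc1, an HSP90 partner, had 0.99 ± 0.15 (adjusted p = 0.00154). For these 3 genes CD8 Treg was near CD49lo and below both CD4 Treg libraries. Sugt1 (SGT1), an adaptor of HSP90, went the other way, at 33.5 and 35.9 RPKM in CD4 Treg, 47.4 for CD8 Treg, and 66.5 and 68.4 RPKM in CD49lo (log2 fold change -0.92 ± 0.12, adjusted p = 0.000603). Against CD4 Treg, 4 of 16 were lower in CD8 Treg (Stip1, Fkbp4, Ahsa1 and Chordc1) and Sugt1 was higher.

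Among partners of HSP70, St13 (HIP), which slows the release of ADP, was at 87.8 and 83.4, 38.5, and 50.9 and 45.3 RPKM, higher in CD4 Treg than in CD49lo by 0.85 ± 0.12 on the log2 scale (adjusted p = 0.000647). Of the 9 exchange factors and partners, Bag3 was also higher (0.69 ± 0.21, adjusted p = 0.0448) and Bag2 lower (-1.93 ± 0.46, adjusted p = 0.0141). Against CD4 Treg, CD8 Treg had from this list St13 (-1.04 ± 0.14, adjusted p = 0.00108) and Bag3 (-1.28 ± 0.26, adjusted p = 0.0085), both lower. Of the 4 tested cytosolic HSP70 and HSP110 genes outside the set, Hspa4l was higher in CD4 Treg than in CD49lo (0.67 ± 0.19, adjusted p = 0.0311) and lower in CD8 Treg than in CD4 Treg (-1.55 ± 0.23, adjusted p = 0.00175). Hspa4, its more abundant relative, was at 70.6 and 66.1, 51.4, and 65.1 and 52.8 RPKM and did not pass.

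Most J proteins outside the set did not pass. Of 16 tested, Dnajb4 (1.12 ± 0.22, adjusted p = 0.00592) and Dnajb2 (1.24 ± 0.36, adjusted p = 0.0367) were higher in CD4 Treg than in CD49lo. Dnajb6 (-0.52 ± 0.12, adjusted p = 0.0104) and Dnajc9 (-0.55 ± 0.16, adjusted p = 0.0356) were lower, and the list median was 0.07. Dnajb14 and Dnajb4 were lower in CD8 Treg than in CD4 Treg, at -1.29 ± 0.29 (adjusted p = 0.0154) and -1.13 ± 0.27 (adjusted p = 0.0203).

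Hspb1 (HSP27), a small heat shock protein that holds unfolded proteins without ATP, was at 6.07 and 7.90 RPKM in CD4 Treg, from 75 reads in all, and at 0 reads in the other 3 libraries. Against a floor of 3 reads over the group it was at least 32.0-fold higher in CD4 Treg than in CD49lo and at least 13.0-fold higher than in CD8 Treg. Hspb1 passed the filter only through CD4 Treg. Its limma values (adjusted p = 0.000251 and 0.00132) rest on the added 0.5 and are no separate support. The other 2 small heat shock protein genes tested did not pass in either comparison. None of the 9 mitochondrial chaperones passed in any of the 3 comparisons, with Hspd1 (HSP60) at a log2 fold change of 0.36 ± 0.14 (adjusted p = 0.094) between CD4 Treg and CD49lo. Of 14 subunits of the cytosolic chaperonin and prefoldin, Cct3 was higher (0.56 ± 0.12, adjusted p = 0.0101) and Vbp1 (-0.54 ± 0.15, adjusted p = 0.0334) and Pfdn1 (-0.66 ± 0.19, adjusted p = 0.0344) were lower in CD4 Treg than in CD49lo.

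None of the 5 heat shock factors and regulators tested passed between CD4 Treg and CD49lo. Hsf1, the main activator, was at 20.8 and 20.4 RPKM in CD4 Treg, 14.5 for CD8 Treg, and 15.5 and 22.2 RPKM in CD49lo. The CD4 Treg and CD49lo libraries overlapped, with a log2 fold change of 0.17 ± 0.20 (adjusted p = 0.591). Hsf2 was at 6.91 and 7.10, 1.51, and 2.75 and 5.48 RPKM, lower in CD8 Treg than in CD4 Treg (-1.82 ± 0.41, adjusted p = 0.0157) and not passing between CD4 Treg and CD49lo (0.79 ± 0.34, adjusted p = 0.133). Hsf4 was higher in CD8 Treg than in CD4 Treg (2.34 ± 0.54, adjusted p = 0.0162) at levels of 6.06 RPKM and at most 1.16 RPKM. HSF1 is known to be controlled mainly as a protein, which these libraries do not measure.

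In the ER most folding genes did not pass, and those that did went both ways, as Hspa5 and Hsp90b1 did. Of the 22 tested beside the 2, Pdia3 (0.34 ± 0.10, adjusted p = 0.0429) and Dnajb9 (0.63 ± 0.19, adjusted p = 0.0443) were higher in CD4 Treg than in CD49lo. Sdf2l1, a cofactor of BiP, was lower, at 10.3 and 9.79 RPKM in CD4 Treg, 10.6 for CD8 Treg, and 30.5 and 29.8 RPKM in CD49lo (-1.51 ± 0.23, adjusted p = 0.00116). It was also lower in CD8 Treg than in CD49lo (-1.34 ± 0.28, adjusted p = 0.0244), so the CD4 Treg and CD8 Treg libraries lay together. Fkbp2 was lower in CD4 Treg than in CD49lo (-1.16 ± 0.27, adjusted p = 0.0124). Fkbp11 was at 0 reads in CD4 Treg and at 1.64 and 2.71 RPKM in CD49lo. Against a floor of 3 reads over the group it was at least 5.98-fold lower in CD4 Treg. Fkbp11 passed the filter only through CD49lo, so its call is no separate support. The oxidoreductase Pdia4 and the BiP partner Hyou1 did not pass, at 0.00 (adjusted p = 0.98) and -0.10 ± 0.13 (adjusted p = 0.651). Compared with CD4 Treg, CD8 Treg was lower in Pdia3 (-0.70 ± 0.12, adjusted p = 0.00453), Cnpy2 (-1.12 ± 0.21, adjusted p = 0.00534) and Calr (-0.39 ± 0.11, adjusted p = 0.0479).

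Sensors and effectors of the unfolded protein response were likewise mixed, with 3 of 16 higher and 2 lower in CD4 Treg than in CD49lo. Ppp1r15a (GADD34), which restarts translation after stress, was at 69.4 and 61.4 RPKM in CD4 Treg, 14.4 for CD8 Treg, and 16.6 and 17.2 RPKM in CD49lo. It was higher in CD4 Treg by 1.94 ± 0.13 against CD49lo (adjusted p = 1.36e-05), and CD8 Treg was lower than CD4 Treg by -2.04 ± 0.16 (adjusted p = 5.65e-05). Trib3 (1.94 ± 0.40, adjusted p = 0.00691) and Edem1 (0.37 ± 0.11, adjusted p = 0.0427) were the others higher, and the sensors Atf6 (-1.22 ± 0.17, adjusted p = 0.000847) and Ern1 (IRE1, -0.94 ± 0.23, adjusted p = 0.0159) were lower. Xbp1, the factor that IRE1 activates by splicing, was at 39.2 and 42.4, 21.0, and 40.1 and 34.9 RPKM. It did not pass between CD4 Treg and CD49lo (0.15 ± 0.14, adjusted p = 0.514) and was lower in CD8 Treg than in CD4 Treg (-0.83 ± 0.17, adjusted p = 0.0104). Splicing of Xbp1 cannot be read from a table of genes.

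**Figure D4:**
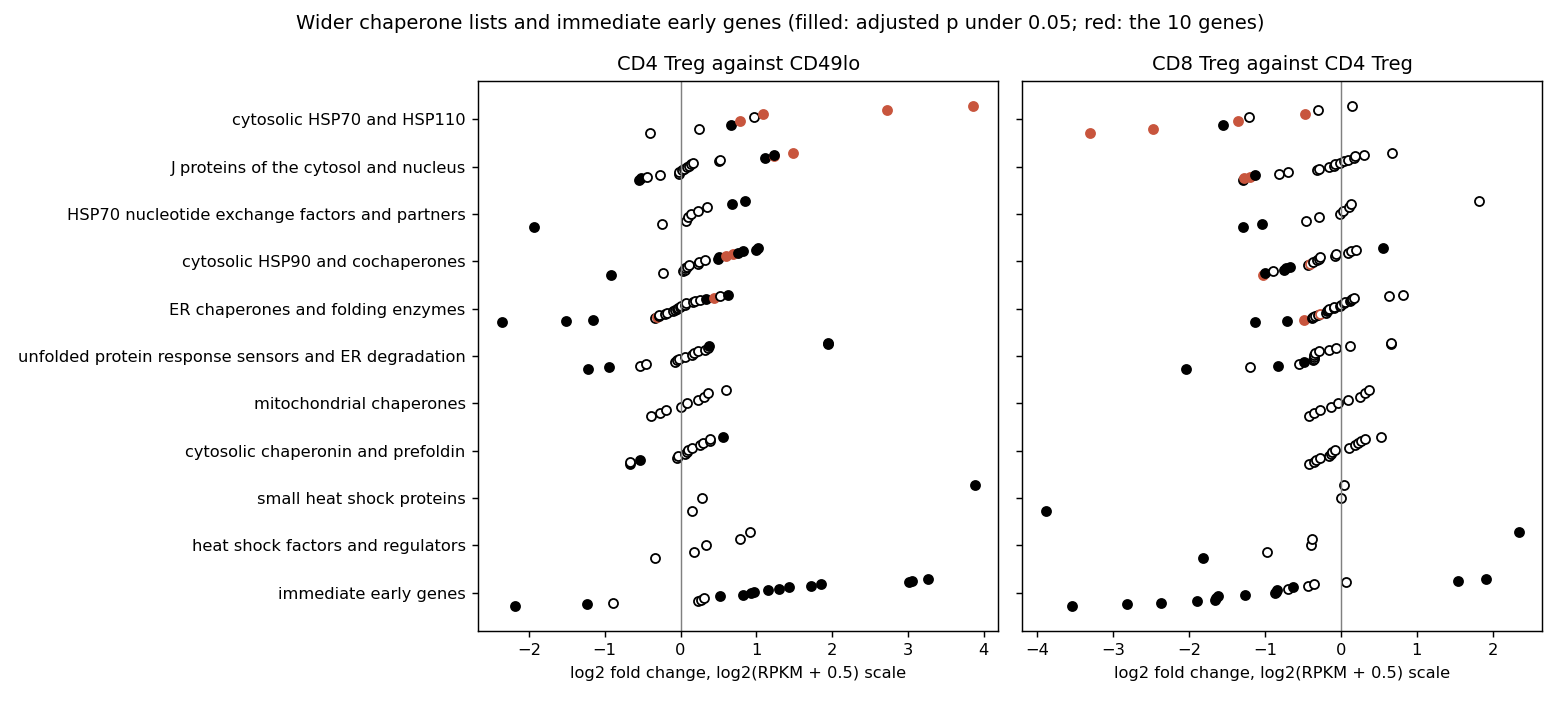
Log2 fold change on the log2(RPKM + 0.5) scale (x axes) of each tested gene in the chaperone lists and among immediate early genes (y axis), with CD4 Treg against CD49lo on the left, CD8 Treg against CD4 Treg on the right, the 10 genes in red and other genes filled black where the adjusted p was under 0.05. In the left panel 12 of 18 immediate early genes and 6 of 16 HSP90 cochaperones are filled and higher, while no mitochondrial chaperone is filled; the Hspb1 point, from a gene at 0 reads in the lower group, depends on the added 0.5.

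Immediate early genes, which respond within minutes to stimulation and to handling of cells, had the same sort as the highest. Their 18 genes summed to 1428 and 1419 RPKM in CD4 Treg, 579.5 for CD8 Treg, and 619.8 and 659 RPKM in CD49lo. In CD4 Treg against CD49lo 12 of 18 were higher and 2, Fosl2 and Ier3, were lower. Jun, a subunit of AP-1, was at 114 and 101, 13.8, and 15.2 and 10.5 RPKM (log2 fold change 3.06 ± 0.18, adjusted p = 5.59e-06), and the phosphatase gene Dusp1 had 3.27 ± 0.18 (adjusted p = 3.66e-06). Between CD8 Treg and CD4 Treg 11 were lower and 2, again Fosl2 and Ier3, were higher in CD8 Treg. Compared with CD49lo, CD8 Treg had none higher and Nr4a1 lower (-0.95 ± 0.19, adjusted p = 0.0198). The part of sample handling or activation in the chaperone differences was not tested.

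Genes nearest in pattern to the heat-inducible members were sought by Euclidean distance between centred log2(RPKM + 0.5) profiles over the 5 libraries, with the mean profile of Hspa1a, Hspa1b, Hsp90aa1, Hsph1 and Dnajb1 as the target. The nearest among the tested genes outside the set were Trib2 (distance 0.148), Itga6 (0.204), Afap1 (0.220), Laptm4b (0.227) and She (0.275). Trib2 was at 58.9 and 57.0 RPKM in CD4 Treg, 12.9 for CD8 Treg, and 17.4 and 12.6 RPKM in CD49lo. This target averages changes of unlike size. Between CD4 Treg and CD49lo its log2 fold changes ran from 0.60 for Hsp90aa1 to 3.86 for Hspa1b. Trib2, at 1.96, lay between them, so it resembles the average more than any single member. The mean of Hspa5 and Hsp90b1 was a poor target, since these genes differ in direction between CD4 Treg and CD49lo and their mean is nearly flat there, resembling neither gene. Nearest to that average were Rsph3a (0.0377), Psmd4 (0.0400), Cops7a (0.0533), Casp6 (0.0640) and Ap2m1 (0.0652). Psmd4, a proteasome subunit, was at 108 and 109, 78.1, and 106 and 108 RPKM, lowest in CD8 Treg, as the average was. With 5 libraries in 3 sorts, such likeness rests on few points and says nothing on shared control.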

How the data were processed

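The authors deposited 1 table of RPKM (reads scaled to gene length and depth) for 35275 genes and 5 libraries. CASAVA, STAR and mm10 are named in the submitters' processing notes. The read counter, strand setting and annotation are not given in the sources used here. Each value times its gene length was a whole multiple of 1 step within 0.02, so reads were recovered for the filter, the scaling and the read numbers given. Genes were kept (13298) with 15 reads in all and, in at least 1 library, a level worth 10 reads at the median depth. For the fit, RPKM were divided by TMM factors (trimmed mean of M values), 0.935 to 1.04. Levels, ratios of means and overlaps between libraries are on deposited RPKM, without these factors. Log2(RPKM + 0.5) was fitted with limma 3.58.1 (R 4.3.3) in 3 groups, with 2 residual degrees of freedom and a prior that follows the gene's mean log2 depth-scaled reads. P-values are two-sided, Benjamini-Hochberg adjusted, with a threshold of 0.05. The main test was on the deposited RPKM scale, and limma-voom on the recovered reads was an alternative. The members and lists were chosen with earlier results of these data known. Beside all 10 genes, up to 4 called genes per list and comparison with the smallest p are named, further ones where a count of 5 or fewer needed its names, and up to 3 of the most abundant markers of other cells. Ncr1 and Clec7a meet none of these rules. They were named after their values were seen, as genes at 0 in both CD4 Treg libraries. The fitting code was tested on simulated data. Transcript overlaps used GENCODE M21.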

Additional observations from a re-analysis of the deposited data

How the results depend on the processing

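Of the 188 fold changes recomputed for the 10 genes between CD4 Treg and CD49lo, 144 kept direction and side of the threshold, 44 lost the threshold and none reversed. Of 168 in CD8 Treg against CD4 Treg, 119 were kept, 44 lost, 5 gained and none reversed, and of 168 in CD8 Treg against CD49lo, 149 were kept, 7 lost, 5 gained and 7 reversed. The reversed values, none past the threshold, were Dnajb1 at -0.092 without a scaling factor, and 3 genes with a CD49lo replicate left out. Over such sets Dnajb1 ran from -0.0047 to 0.087 (-0.0045 without replicate 1 in limma-voom), Hspa1a from -0.32 to 0.82 and Hspa1b from -0.44 to 1.55 (-0.55 and -0.53 without replicate 2 in limma-voom). The cause was not tested. Taking CD4 Treg against CD49lo first, then CD8 Treg against CD49lo, and last CD8 Treg against CD4 Treg, the set gave 10, 1 and 8 calls and all genes 2954, 714 and 2242. With no filter these were 3, 0 and 4 calls of the set and 685, 452 and 1072 of all genes, in a fit with 803 genes of zero residual. A prior variance shared by all genes gave 6, 0 and 3, and 1961, 2 and 1192. A filter of 1 RPKM in every library of a group gave 0 and 5 calls in the comparisons with CD8 Treg, and 291 genes in CD8 Treg against CD49lo. Without scaling, and with limma-voom, the set had 2 calls in CD8 Treg against CD49lo. Leaving out 1 replicate gave 0 to 6, 0 and 0 to 4 calls of the set, and 0 to 1459, 0 to 204 and 0 to 976 genes. With limma-voom on these smaller sets, added after seeing the data, the ranges were 8 to 10, 1 to 3 and 5 to 9, and all genes 1352 and 1511 without a CD4 Treg replicate and up to 3371 otherwise, 633 to 1068, and 930 and 1065 and up to 2860. Median-ratio scaling and a fit without the CD8 Treg library, also added after seeing the data, changed no call of the set. With the replicate number as a block over the 4 numbered libraries, all 10 genes still passed between CD4 Treg and CD49lo, and 3559 genes were called. The deviations of same-numbered libraries had a correlation of -0.02 over genes. A single value of this kind cannot tell whether these libraries share more than a number. Depth limits Hspa1a and Hspa1b outside CD4 Treg, where a library held 1 to 65 reads of either gene.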
